A study of Mus musculus with 27 samples.

Results

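The genes described here are 9 Hedgehog pathway genes of the mouse colon, out of 35975 genes with summed counts. They are the ligands Ihh and Shh, the ligand-binding protein Hhip, the receptor Ptch1, the transcription factors Gli1, Gli2 and Gli3, and the forkhead genes Foxf1 and Foxl1. They were taken by symbol, as a pathway set in which Hhip had been picked because its genotype difference was unlike in the proximal and distal colon. For Hhip the values between genotypes and between segments are therefore a description, given with no test, and 8 genes remained for testing. All 9 genes passed the filter on low counts in each comparison.

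RNA was taken from whole 1 cm pieces of proximal and distal colon of 14 mice on a mixed background, and 13 mice gave both pieces. Controls gave 7 proximal and 6 distal libraries, and deficient mice 7 of each. Deficient mice were Villin1-Cre; Foxa1lox/lox; Foxa2lox/lox and 9 to 13 months old, with female labels on 2 of them (replicates 5 and 7). Controls, all with male labels, were aged 9 to 18 months. Of these, 5 were Foxa1lox/lox; Foxa2lox/lox without Cre. Control replicate 1 was Villin1-Cre; Foxa1lox/wt; Foxa2lox/wt, and control replicate 6 was Villin1-Cre; Foxa1lox/lox; Foxa2lox/wt. Villin1-Cre acts in the intestinal epithelium, so both Foxa genes stay intact in mesenchyme and muscle, and the lox alleles are shared by controls and deficient mice.

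Hedgehog proteins are secreted by the gut epithelium and act mainly on the mesenchyme beneath it. Ligand binding to Ptch1 releases the membrane protein Smo, and Gli transcription factors then switch on targets. Ptch1, Gli1 and Hhip are themselves targets, and Ptch1 and Hhip restrain the signal, Hhip by binding the ligands outside the cell. Foxf1 and Foxl1 are mesenchymal genes downstream of the signal. In the adult colon Ihh is known as the main ligand, made by differentiated colonocytes, and Shh as a scarce ligand of the crypt.

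The ligands are close relatives, so the stretch in which their coding sequences are most alike is shown first, to show how far reads can tell them apart. It covers 120 bases of exon 2 of 3 in both genes, from the GENCODE M21 transcripts (GRCm38): chr1:74948421-74948540 on the minus strand for Ihh and chr5:28461439-28461558 on the minus strand for Shh. Capitals mark the bases that differ between the ligands.
Ihh: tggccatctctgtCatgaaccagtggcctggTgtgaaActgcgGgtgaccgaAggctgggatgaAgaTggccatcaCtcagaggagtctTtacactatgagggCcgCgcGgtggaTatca
Shh: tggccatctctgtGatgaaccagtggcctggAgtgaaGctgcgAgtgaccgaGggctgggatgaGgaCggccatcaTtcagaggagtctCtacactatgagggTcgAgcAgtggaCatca
The stretch was 89.2% equal, with 13 differing bases, of which 12 were at the third base of a codon, and the longest equal run was 17 bases. Across the whole transcripts, no word of 31 bases was shared by any 2 of the 9 genes (0 shared words in every pair).

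Promoter sequences from RefSeq (GRCm38.p6) were at hand for 5 of the 9 genes: Ihh, Hhip, Ptch1, Gli2 and Gli3. The 250 bases before the start of Ihh (chr1:74951673-74951922, minus strand) and Hhip (chr8:80058009-80058258, minus strand) are shown because these genes had non-overlapping levels between genotypes in the distal colon. Capitals mark CG dinucleotides.
Ihh promoter: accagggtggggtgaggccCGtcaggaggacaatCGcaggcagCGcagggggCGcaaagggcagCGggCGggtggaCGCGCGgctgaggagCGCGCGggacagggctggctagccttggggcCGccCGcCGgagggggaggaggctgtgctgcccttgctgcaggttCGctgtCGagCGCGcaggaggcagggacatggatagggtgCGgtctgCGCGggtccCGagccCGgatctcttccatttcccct
Hhip promoter: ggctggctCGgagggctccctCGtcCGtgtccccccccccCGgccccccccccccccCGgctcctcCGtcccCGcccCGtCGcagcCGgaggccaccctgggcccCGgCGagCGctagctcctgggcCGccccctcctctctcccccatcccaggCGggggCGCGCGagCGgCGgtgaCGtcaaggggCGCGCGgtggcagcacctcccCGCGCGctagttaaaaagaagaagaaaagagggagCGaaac
They held 24 and 28 CG dinucleotides, against a median of 6 over 32851 promoters, and were 72% and 76% G or C, against a median of 52.4%. The forkhead core TGTTTNC (N is any base) was in neither window on either strand, nor in those of Ptch1, Gli2 and Gli3 (0 of 5), and 17.8% of all promoters held it. The Gli-binding letters GACCNCCCA were likewise in 0 of 5, against 0.868% of all promoters. These counts say only that the letters are not in these windows.

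The targeted genes were checked first. Foxa2 was at 6.05 to 15.7 CPM (counts scaled by library size) in proximal controls and 1.23 to 1.75 CPM in proximal deficient libraries. In the distal colon it was at 15.5 to 30.4 and 0.326 to 1.37 CPM. Foxa1 was at 42.4 to 80.8 CPM in all controls except replicate 6, whose Cre genotype has both Foxa1 alleles floxed and which held 13.9 CPM proximally and 7.6 CPM distally. Deficient libraries held 7.21 to 14.5 CPM. Of 12 squamous markers, which could come with anal epithelium, Krt5 and Trp63 were at or below 0.197 CPM in every library. Others were present in distal libraries, with Krt13 at 0.586 to 3.56 CPM in controls and 0.762 to 5.41 CPM in deficient libraries, and Krt14 at 0.454 to 4.32 and 1.04 to 5.95 CPM. Of 8 tested distally 1 was called, higher in deficient mice (Krt15, log2 fold change 1.16), where 2.7% of all genes were called higher. The part of squamous cells in the distal results was not tested. Proximal deficient replicate 3 stood apart by small-intestinal defensins, with Defa24 at 21.6 CPM, where no other library exceeded 2.24 CPM.

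Ihh was by far the more abundant ligand. Levels of different genes are comparable per length within a segment, and the authors deposited such values as TPM, transcript abundance scaled by length and depth. In proximal controls Ihh was at 56.9 ± 11.2 TPM (SD, n = 7) and Shh at 1.49 ± 0.234 TPM. Next came Foxf1 at 10.4 ± 2.92 TPM and Ptch1 at 5.73 ± 1.58 TPM, whose ranges overlapped each other and lay clear of the other genes. Hhip at 1.81 ± 0.74, Shh, Foxl1 at 1.39 ± 0.462 and Gli1 at 0.985 ± 0.284 TPM followed, and neighbours in that run lay within their SDs. Gli2 and Gli3, the Gli proteins that take the signal first, were lowest, at 0.324 ± 0.172 and 0.328 ± 0.0986 TPM.

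In distal controls the order began with Ihh at 40.4 ± 9.71 TPM (n = 6), then Ptch1 at 4.56 ± 1.40 and Foxf1 at 4.24 ± 1.45 TPM, which did not differ beyond their spread. Hhip was at 0.932 ± 0.149 TPM, above Foxl1 at 0.445 ± 0.181 and Gli1 at 0.369 ± 0.149 TPM. Shh was at 0.252 ± 0.158 TPM, among Gli2 and Gli3. In distal deficient libraries Hhip was at 0.186 ± 0.1 TPM (n = 7), level with Gli2 at 0.2 ± 0.145 and Gli3 at 0.179 ± 0.11 TPM.

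**Figure D1:**
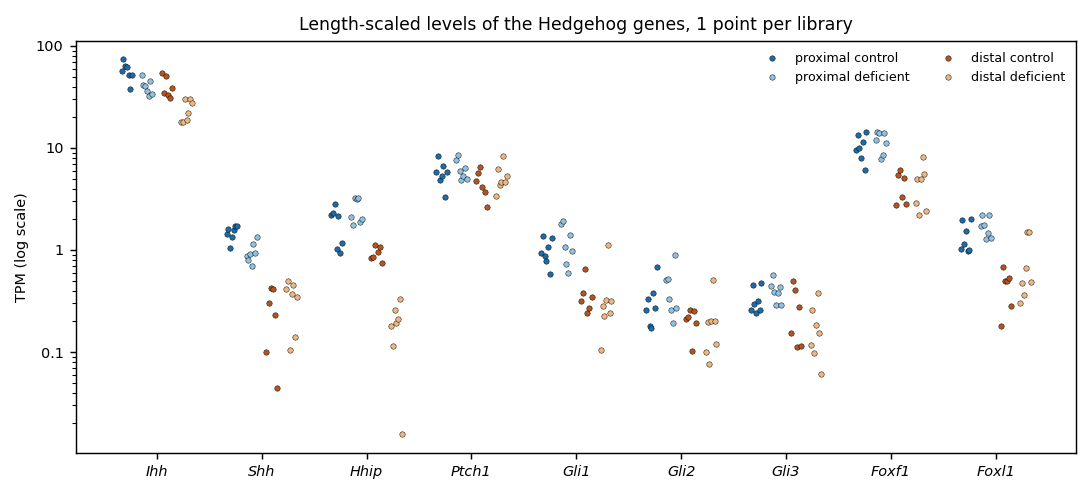
Length-scaled level (TPM, log axis) of each gene in every library, with 1 point per library coloured by group. Ihh lies above all other genes in every group, and the distal deficient points of Hhip lie between 0.0157 and 0.328 TPM, below the distal control range of 0.743 to 1.13 TPM.

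Ihh fell in both segments of the deficient mice. In proximal colon control libraries ranged from 52.5 to 102 CPM with a median of 86.7, and deficient libraries from 49.9 to 66.9 CPM with a median of 58.4. The ranges overlapped because control replicate 6 was at 52.5 CPM, while the next lowest control was at 70.3 CPM, above all deficient libraries. The log2 fold change was -0.50 (SE 0.13, 95% interval -0.78 to -0.23, adjusted p = 0.0175). Without control replicate 6 it was -0.59 (adjusted p = 0.00084), and in mice labelled male alone it was -0.45 and no longer passed (adjusted p = 0.0731).

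In distal colon the groups did not overlap for Ihh. Controls held 60.9 to 113 CPM with a median of 71.4, and deficient libraries 27.2 to 57.1 CPM with a median of 34.6, all 7 below the lowest control. The deficient libraries lay in 2 clumps, with replicates 3, 6 and 7 at 53.9 to 57.1 CPM and the other 4 at 27.2 to 34.6 CPM. The log2 fold change was -0.86 (SE 0.20, 95% interval -1.29 to -0.44, adjusted p = 0.0172). With the 4 distal controls without Cre alone it was -0.66 and no longer passed (adjusted p = 0.0991), though these controls, at 60.9 to 80.5 CPM, still lay above all deficient libraries. The distal controls with Cre, replicates 1 and 6, were the highest, at 113 and 82.4 CPM.

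Shh, the scarce ligand, fell in the proximal colon. Controls ranged from 2.32 to 3.27 CPM with a median of 2.96, and deficient libraries from 1.3 to 2.66 CPM with a median of 1.75. Of the 7 deficient libraries, 5 lay below every control, and the exceptions, at 2.46 and 2.66 CPM, were replicates 5 and 7. These were the mice labelled female and also the oldest deficient mice, at 13 and 12 months. Sex and age cannot be told apart there. The log2 fold change was -0.63 (SE 0.17, 95% interval -0.98 to -0.27, adjusted p = 0.0222). It was -0.59 with controls without Cre alone (adjusted p = 0.0654) and -0.55 in mice of 9 to 13 months (adjusted p = 0.134), where it no longer passed.

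Distal Shh rested on few counts, and a difference of that size was not resolved there. Controls held 3 to 35 estimated counts (0.119 to 0.978 CPM) and deficient libraries 9 to 34 (0.252 to 0.995 CPM), with ranges almost on top of each other. The lowest controls, at 0.119 and 0.259 CPM, were replicates 6 and 1, the controls with Cre. The log2 fold change was 0.29 with a 95% interval of -0.65 to 1.24 (adjusted p = 0.786), which spans the proximal value. Over the alternative settings it ran from -0.10 to 0.48.

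Of the 8 tested genes, 2 were called in the proximal colon, both lower, where 6.17% of all 16787 genes tested were called lower, 5.52% higher and 11.7% in either direction at an adjusted p under 0.05. In the distal colon 1 of 8 was called, Ihh, where 3.37% of 16041 genes were called lower, 2.7% higher and 6.07% in either direction. The genes called were thus ligands, and none of the receptor, Gli or forkhead genes passed in either segment. Ranges that did not overlap with deficient libraries lower occurred for 3.05% of proximal and 2.07% of distal genes, and among the 8 tested genes for distal Ihh. Distal Hhip did not overlap either, but it is not counted here because it was picked for its genotype difference. Ranges that did not overlap with deficient libraries higher occurred for 1.76% and 1.33% of genes, and for none of the 9.

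Whole tissue was sampled, and fewer cells of a type and less RNA per cell cannot be told apart in it, so the summed markers of each compartment are given beside these results. The 12 epithelial markers (Epcam, Krt8, Cdh1 and others) summed to 13800 to 20700 CPM in proximal controls and 14800 to 21100 CPM in proximal deficient libraries. In distal colon they summed to 19200 to 29600 and 15200 to 25500 CPM, and the ranges overlapped in both segments. Relative to that sum, proximal Ihh was 2.54 to 7.12 CPM per 1000 CPM of the list in controls (median 5.02) and 2.75 to 4.07 in deficient libraries (median 2.98). These ranges overlapped because of control replicate 6 alone, at 2.54, and the next lowest control, at 4.84, lay above all deficient libraries. The distal Ihh ranges did not overlap, at 2.57 to 4.21 CPM per 1000 CPM of the list in controls and 1.39 to 2.51 in deficient libraries. Proximal Shh per 1000 epithelial CPM was 0.122 to 0.218 in controls and 0.0698 to 0.151 in deficient libraries. The 10 crypt base markers summed to 369 to 701 CPM in proximal controls and 485 to 683 CPM in proximal deficient libraries. Proximal Shh per 1000 CPM of them was 3.71 to 8.44 and 2.65 to 4.04, with medians of 4.54 and 3.07, and these ranges overlapped.

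The 12 markers of differentiated colonocytes, the cells known to make Ihh, gave another picture in distal colon. Of the 12, 2 were called lower distally (Car1, log2 fold change -3.57, and Slc26a3, -1.30), where 3.37% of all genes were called lower. Their distal sum was 10400 to 20600 CPM in controls and 6020 to 16700 CPM in deficient libraries. Relative to that sum, distal Ihh overlapped, at 3.75 to 7.72 in controls and 2.07 to 5.98 in deficient libraries, with medians of 4.41 and 4.76. In proximal colon 3 of the 12 were called higher and 2 lower, where 5.52% of all genes were called higher and 6.17% lower. Proximal Ihh per 1000 CPM of the list was 2.45 to 5.39 in controls and 2.48 to 4.15 in deficient libraries, with medians of 3.98 and 3.24. The part of these cells in the lower Ihh was not tested.

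**Figure D2:**
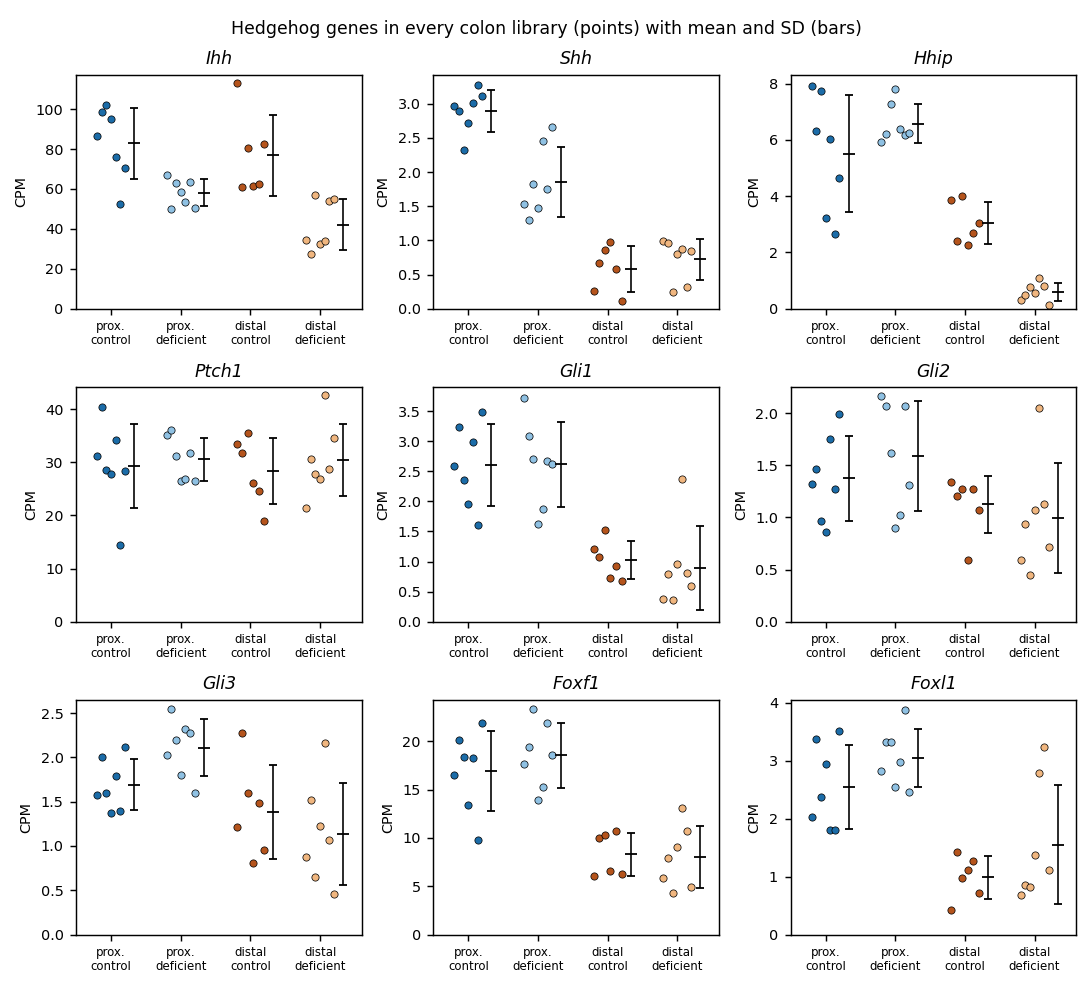
CPM of each gene in every library (points) by group, with the mean and SD beside them (bars), on linear axes from 0. Distal Ihh and distal Hhip are the panels in which the deficient points lie wholly below the controls, with Hhip at 0.13 to 1.1 CPM against 2.27 to 4.02 CPM.

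Hhip, the decoy for Hedgehog ligands, was the gene picked for its segment-dependent genotype difference. In distal colon controls held 2.27 to 4.02 CPM with a median of 2.87 (65 to 158 estimated counts), and deficient libraries 0.13 to 1.1 CPM with a median of 0.567 (2 to 30 counts). All 7 deficient libraries lay below every control, and the lowest, replicate 7 with 2 counts, was also the shallowest library of the study. The log2 fold change was -2.31 (SE 0.34), a ratio of 0.201.

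In proximal colon the Hhip range of the deficient libraries lay within that of the controls. Controls spread from 2.65 to 7.93 CPM with a median of 6.04, and deficient libraries kept to 5.91 to 7.82 CPM with a median of 6.24. The 2 lowest controls were replicates 6 and 4, at 2.65 and 3.21 CPM. The log2 fold change was 0.27 (SE 0.21), and 0.15 without control replicate 6. The difference of the genotype effects, distal minus proximal, was -2.70 (SE 0.37).

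The smooth muscle of the gut wall is among the tissues that receive Hedgehog signals, and its markers are given beside Hhip. In distal colon all 13 (among them Acta2, Myh11 and Des) had a log2 fold change below 0, with a median of -0.63, against 0.0092 over all genes tested, and 0 of 13 passed the edgeR test (4 at an unadjusted p under 0.05). For the difference of the genotype effects, distal minus proximal, all 13 were also below 0, with a median of -0.86 against 0.015 over all genes. There too 0 of 13 passed the edgeR test (10 at an unadjusted p under 0.05). The sum of the 13 markers was 1470 to 4160 CPM in distal controls and 708 to 2210 CPM in distal deficient libraries. Hhip per 1000 CPM of that sum was 0.648 to 2.41 in controls and 0.169 to 0.931 in deficient libraries, with medians of 1.40 and 0.268. The ranges overlapped through deficient replicate 3 alone, at 0.931, and the next highest deficient library, at 0.511, lay below every control.

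Fibroblasts are another Hedgehog-responding compartment. Their 18 markers (Col1a1, Dcn, Pdgfra and others) had distal sums of 618 to 1160 CPM in controls and 708 to 1690 CPM in deficient libraries. Per 1000 CPM of them, distal Hhip was 2.32 to 4.78 in controls and 0.106 to 0.937 in deficient libraries, with no overlap. In proximal colon the same ratio was 3.53 to 9.57 and 5.2 to 9.56. Which cells of the whole tissue held the Hhip transcripts was not measured, and the part of muscle content in the lower Hhip level was not tested beyond these ratios.

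**Figure D3:**
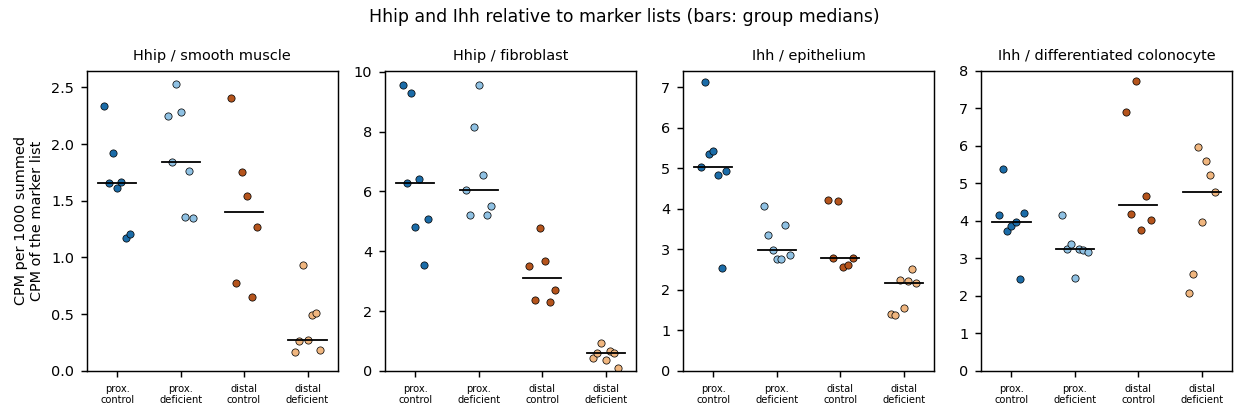
CPM of Hhip and Ihh per 1000 summed CPM of a marker list (vertical axis) in every library (points), with group medians (bars), for 4 pairs of gene and list. Distal deficient Hhip lies apart from distal controls per fibroblast marker, and per smooth muscle marker it reaches their range in replicate 3 alone. Ihh per differentiated colonocyte marker overlaps in both segments.

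Ptch1, the receptor and itself a target, had close medians in the 4 groups. Its medians were 28.5 CPM in proximal controls, 31.2 in proximal deficient, 28.9 in distal control and 28.8 in distal deficient libraries. The proximal log2 fold change was 0.08 (95% interval -0.28 to 0.43) and the distal one 0.10 (-0.26 to 0.47), with adjusted p of 0.853 and 0.807. The lowest Ptch1 library was proximal control replicate 6 at 14.4 CPM, which was also the lowest of its group for Ihh, Gli1, Hhip and Foxf1.

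Gli1, the Gli factor whose transcription reads out the signal, did not pass in either segment. In proximal colon it ranged from 1.61 to 3.48 CPM in controls (median 2.59) and 1.62 to 3.72 CPM in deficient libraries (median 2.68), with a log2 fold change of 0.02 (95% interval -0.42 to 0.47, adjusted p = 0.97). In distal colon it ranged from 0.673 to 1.53 CPM (median 1.00) and 0.365 to 2.38 CPM (median 0.79), with a log2 fold change of -0.19 (95% interval -1.07 to 0.68, adjusted p = 0.855). Distal deficient replicate 5, at 2.38 CPM, stood above the other 6, which were at or below 0.954 CPM.

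That distal library was highest for several mesenchymal genes at once. The proximal library of the same mouse was mixed. It lay below its group's median for Gli1 (1.87 CPM), Gli2 (1.02 CPM), Foxf1 (15.3 CPM) and Ptch1 (26.9 CPM). Its Gli3, at 2.32 CPM, lay above the group median of 2.2 CPM, and its smooth muscle sum, at 4680 CPM, was the highest of its group. Distal deficient replicate 5 was the highest of its group for Gli2 (2.05 CPM), Gli3 (2.16 CPM), Foxf1 (13.1 CPM) and Ptch1 (42.7 CPM), and also for the summed fibroblast (1690 CPM), smooth muscle (2210 CPM) and endothelial markers (233 CPM). Without it the distal Gli1 log2 fold change was -0.66 (adjusted p = 0.294) and that of Gli2 -0.45 (adjusted p = 0.457). Neither passed with or without that library. Gli1 shares 62 exon bases with Arhgap9 on the other strand, and the library kit named in the labels does not mark strand, so reads there cannot be told apart.

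Gli2 and Gli3, the activator and the main repressor of the family, had few counts. Gli2 held 36 to 115 counts in proximal and 11 to 62 in distal libraries, with log2 fold changes of 0.23 (95% interval -0.29 to 0.75) and -0.17 (-0.87 to 0.53). Gli3 in proximal colon was at 1.37 to 2.12 CPM in controls and 1.6 to 2.54 CPM in deficient libraries, 4 of which lay above every control. Its log2 fold change of 0.34 (95% interval 0.01 to 0.66) did not pass after adjustment (adjusted p = 0.203). In distal colon it was -0.28 (95% interval -1.02 to 0.46, adjusted p = 0.737).

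The mesenchymal forkhead genes lie side by side on chromosome 8, Foxf1 at chr8:121084386-121088144 and Foxl1 at chr8:121127940-121130644, both on the plus strand. Foxf1, needed for gut mesenchyme, ranged from 9.77 to 21.9 CPM in proximal controls and 13.9 to 23.3 CPM in proximal deficient libraries, and from 6.01 to 10.7 and 4.35 to 13.1 CPM distally. Its log2 fold changes were 0.15 (95% interval -0.20 to 0.49, adjusted p = 0.666) and -0.05 (-0.62 to 0.52, adjusted p = 0.95). The distal deficient range enclosed the distal control range.

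Foxl1 marks the subepithelial telocytes, stromal cells that lie along the crypt. It was at 1.81 to 3.51 CPM in proximal controls and 2.46 to 3.87 CPM in proximal deficient libraries, with a log2 fold change of 0.27 (95% interval -0.11 to 0.66, adjusted p = 0.423). In distal colon controls held 0.432 to 1.43 CPM, and deficient libraries 0.684 to 3.23 CPM, with replicates 5 and 6 at 2.78 and 3.23 CPM above all others. The distal log2 fold change was 0.64 (95% interval -0.24 to 1.52, adjusted p = 0.463).

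Some other telocyte markers were called, and whether Foxl1 differed from them was not tested. Of 13 tested in proximal colon, 5 rose (Wnt5a 0.97, Cxcl14 0.93, Wnt5b 0.85, Bmp5 0.74 and Pdgfra 0.54 on the log2 scale) and 1 fell (F3, -0.70). Of all genes, 5.52% were called higher and 6.17% lower there. The list median was 0.49 against 0.0079 over all genes, and the proximal Foxl1 interval of -0.11 to 0.66 held it. In distal colon 2 rose (Sox6 1.69, Bmp3 1.15) and 2 fell (F3 -1.11, Agt -1.11), where 2.7% of all genes were called higher and 3.37% lower. Proximal Foxl1 per 1000 CPM of the summed list was 6.24 to 13.8 in controls and 8.26 to 13.9 in deficient libraries.

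**Figure D4:**
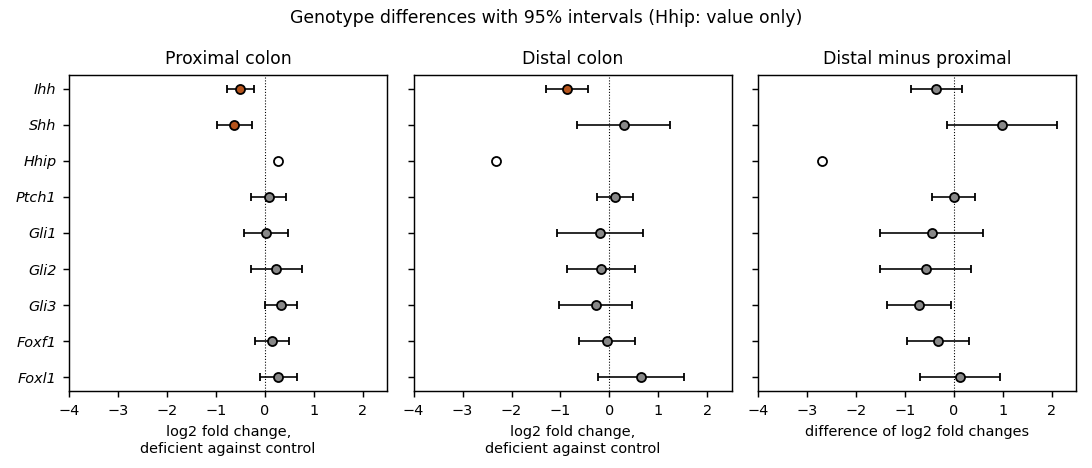
Log2 fold change of deficient against control mice (horizontal axis) for each gene in proximal colon, distal colon, and their difference, with 95% intervals. Filled orange points passed an adjusted p under 0.05, grey points did not, and Hhip is an open point with no interval because it was picked on this contrast.

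The genotype effect itself was then compared between segments within 13 mice. Of the 8 tested genes 0 passed, where 1.01% of 17595 genes tested did (0.432% with a higher and 0.58% with a lower effect in distal colon). By an unadjusted p under 0.05 there was 1, Gli3, at -0.71 (95% interval -1.36 to -0.07, adjusted p = 0.365). The Ihh effect differed by -0.36 (95% interval -0.88 to 0.16, adjusted p = 0.607), so its fall was not shown to differ between proximal and distal colon. Shh differed by 0.98 (95% interval -0.14 to 2.10, adjusted p = 0.5), an interval that leaves much room either way. DESeq2 called 0 of the 8 as well.

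Along the colon of control mice, the ligand Shh and several mesenchymal genes were lower distally. In 6 mice with both segments, 4 of 8 genes were called lower in distal colon, and 0 higher, where 22.3% of 16507 genes were called lower, 21.5% higher and 43.8% in either direction. The segments were quantified with unlike fragment length handling (effective lengths were 249 bases below the transcript lengths throughout the distal libraries, and at most 246 below in the proximal ones), so a segment difference can hold a technical share. With effective lengths taken into the fit, 4 genes were called in controls and 6 in deficient mice, as without them.

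Shh had the largest control segment difference among the 8, at -2.37 (SE 0.38, adjusted p = 0.00116), lower distally in 6 of 6 mice. Foxl1 was at -1.29 (SE 0.23, adjusted p = 0.00186), Gli1 at -1.27 (SE 0.20, adjusted p = 0.00105) and Foxf1 at -0.95 (SE 0.13, adjusted p = 0.000398), each lower in 6 of 6 mice. Ihh did not pass, at -0.15 (95% interval -0.56 to 0.25, adjusted p = 0.514), lower in 4 of 6 mice. Ptch1 was at -0.02 (95% interval -0.31 to 0.28), and Gli2 and Gli3 at -0.17 and -0.28, none of which passed. Hhip was lower distally in 5 of 6 control mice, at -0.82 (SE 0.21), with a median distal over proximal ratio of 0.504. Of 13 telocyte markers 8 were called lower and 2 higher, and of 18 fibroblast markers 3 lower and 5 higher. Of 12 epithelial markers 1 was lower and 8 higher, where 22.3% of all genes were lower and 21.5% higher. Foxl1 per 1000 CPM of the telocyte sum overlapped, at 6.24 to 13.8 proximally and 3.42 to 10.2 distally. The part of tissue make-up in these segment differences was not tested.

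In deficient mice 6 of 8 genes were called lower in distal colon, and 0 higher, where 22.4% of 16514 genes were called lower, 22.7% higher and 45.1% in either direction. Ihh now passed, at -0.52 (SE 0.14, adjusted p = 0.0152), lower in 6 of 7 mice. The others were Gli1 at -1.74 (SE 0.41, adjusted p = 0.00711), Shh at -1.41 (SE 0.31, adjusted p = 0.00511), Foxf1 at -1.28 (SE 0.24, adjusted p = 0.00199), Foxl1 at -1.18 (SE 0.29, adjusted p = 0.00838) and Gli3 at -0.998 (SE 0.23, adjusted p = 0.00676). Passing in 1 genotype and not in the other does not show a difference between them, and the test of that difference is the one above, which 0 of 8 passed. Gli2 was at -0.76 (adjusted p = 0.106) and passed only without replicate 5 (-1.06, adjusted p = 0.0198).

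Hhip had the widest segment difference of the 9 genes in deficient mice, given as a description. It was lower distally in 7 of 7 mice, with a median ratio of 0.0819 and a log2 difference of -3.53 (SE 0.29). All 13 smooth muscle markers were called lower distally in deficient mice (median -1.14), and 6 of 13 in controls (median -0.39). Over all genes 22.4% and 22.3% were called lower. The part of muscle content in the segment differences was not tested.

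**Figure D5:**
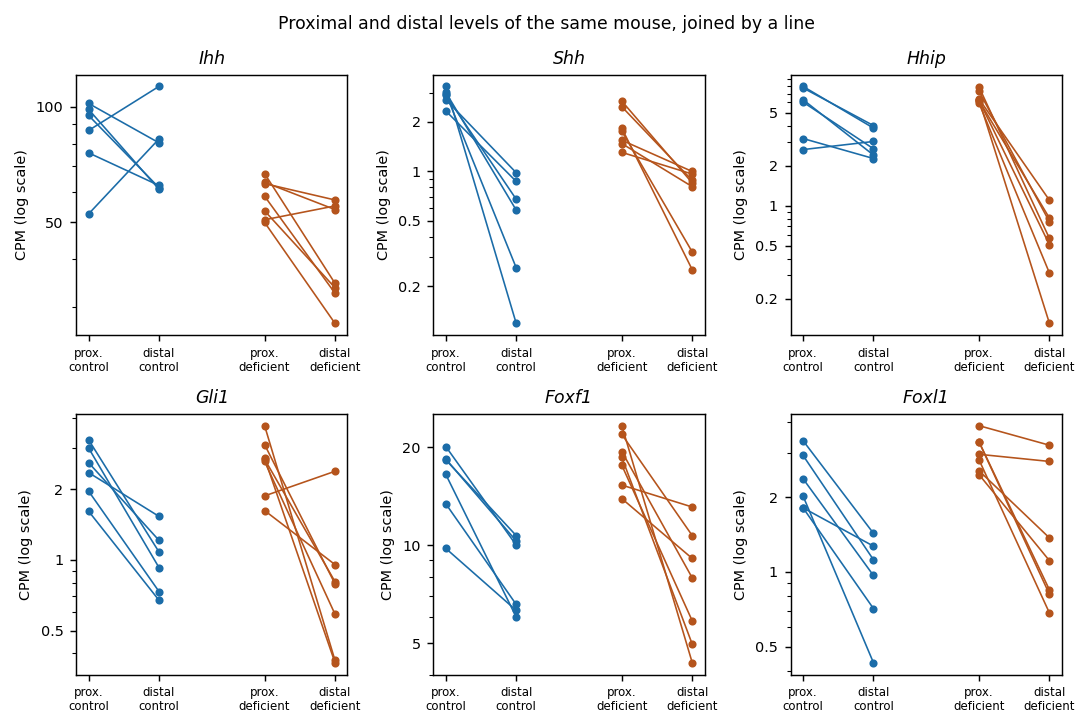
CPM (log axis) in proximal and distal colon of the same mouse, joined by a line, for 6 genes in 6 control and 7 deficient mice. Shh, Foxf1 and Foxl1 lines fall in every mouse, the Gli1 line rises in deficient replicate 5 alone, and Hhip lines fall further in deficient mice (median ratio 0.0819) than in controls (median ratio 0.504).

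The other genes of the pathway were described by 4 lists, and few of them were called, as of all genes tested (11.7% in proximal and 6.07% in distal colon), so these calls single out no list. Of 7 release and carrier genes tested in proximal colon 1 fell, Disp1, which releases the lipid-bearing ligand from the cell (log2 fold change -0.46, SE 0.13, adjusted p = 0.0333). Of 8 receptors and coreceptors 1 fell, the ligand-binding coreceptor Boc (-0.71, SE 0.17, adjusted p = 0.00906). Of 22 relay genes 1 fell, Btrc, part of the ligase that marks Gli proteins for processing (-0.26, SE 0.07, adjusted p = 0.0347). Of 15 other mesenchymal targets 1 rose, the Wnt ligand Wnt5a (0.97, SE 0.17, adjusted p = 0.000756), and 1 fell, cyclin D1 gene Ccnd1 (-0.43, SE 0.12, adjusted p = 0.0311).

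In distal colon 0 of 6 release genes passed the edgeR test (1 at an unadjusted p under 0.05). Of 7 coreceptors 1 fell, Cdon, a relative of Boc (-0.59, SE 0.15, adjusted p = 0.0287). Of 22 relay genes 1 fell, Prkacb, a catalytic subunit of protein kinase A, which phosphorylates Gli proteins (-1.14, SE 0.21, adjusted p = 0.00486). Of 15 targets 1 rose, the Myc family gene Mycn (1.57, SE 0.37, adjusted p = 0.018). Prkacb was also the only listed pathway gene whose genotype effect differed between segments (-1.07, SE 0.22, adjusted p = 0.0327). List medians for the 2 genotype comparisons lay between -0.34 and 0.16, against 0.0079 and 0.0092 over all genes.

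Between segments of control mice, 22.3% of all genes were called lower distally and 21.5% higher. Of 15 other mesenchymal targets 9 were called lower and 0 higher, with a median of -0.78 against -0.054 over all genes. They included the forkhead genes Foxc1 (-1.34) and Foxf2 (-1.25), the growth factor gene Igf1 (-1.14) and Wnt5a (-1.14). In deficient mice 22.4% of all genes were called lower and 22.7% higher. Of the targets, 10 were lower and 2 higher, with a median of -1.07 against -0.027 over all genes. Those of smallest p were Nkx2-3 (-1.28), Igf1 (-1.78), Osr1 (-2.05) and Foxf2 (-1.55), all lower distally.

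The other lists went both ways along the colon. Among release genes, Scube2, a secreted carrier of the ligand, was lower distally in both genotypes (-1.54 in controls, -1.72 in deficient mice), as was Scube1 in controls (-0.56), while Hhat, which adds palmitate to the ligand, was higher (0.43 and 0.72). Among coreceptors Cdon was higher distally (1.32 and 0.95), Boc was lower in controls (-0.79), and Gas1 (-1.33) and Gpc3 (-0.70) were lower in deficient mice. Of 22 relay genes 5 were higher and 7 lower in controls, and 4 each way in deficient mice. Over all genes 43.8% and 45.1% were called in either direction. Prkacb was higher distally (2.62 and 1.55), as was Spop (0.44 and 0.45), with Arl13b (0.48) higher and Kif3a (-0.38) lower in controls, and Grk2 (0.37) higher and Gpr161 (-1.15) lower in deficient mice.

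Genes with the most similar pattern were sought over the 27 libraries by Pearson's r of log2 CPM, centred on each segment's mean, among 13548 genes. The points share libraries, depth, genotype differences and tissue make-up, and the values are a description. Closest to Ihh were Tcf7l1 (0.891), Sytl1 (0.877) and Cyp2d12 (0.872), and closest to Shh were Cldn15 (0.802) and Eya2 (0.778). Closest to Hhip were Eaf2 (0.873), Nat8f3 (0.873) and Edil3 (0.862). Gli1 ran closest to the endothelial cadherin gene Cdh5 (0.907), then Lrrc32 (0.872) and Gli2 (0.862), and Foxl1 closest to Bmp7 (0.928), Pdgfra (0.886) and Pcdh12 (0.86), the first 2 of which are on the telocyte list.

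Most genes were carried by 1 annotated transcript. The coding transcript of Hhip took a mean of 81.3% of Hhip counts in distal controls and 83.3% in distal deficient libraries, and a short noncoding transcript the rest. The coding transcript of Ihh took 91.2% and 92% of Ihh counts in the same groups. A transcript of Ihh with a retained intron took 13.8% to 19.4% in proximal controls and 11.1% to 16.2% in proximal deficient libraries, ranges that overlapped. Ptch1 was shared by a coding transcript of 7002 bases, at group means of 67.9% to 74.4%, and another of 7725 bases, at 21.5% to 28.2%.

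The positions of the remaining genes on GRCm38 are chr1:74945315-74951672 for Ihh, chr5:28456815-28467256 for Shh, chr8:79965851-80058006 for Hhip, chr13:63508328-63573598 for Ptch1, chr10:127329882-127341974 for Gli1 and chr1:118834132-119053619 for Gli2, all on the minus strand. Gli3 lies at chr13:15463235-15730026 on the plus strand. All are annotated as protein coding. Foxf1 and Foxl1 lie within the span of the model Gm20388 on the same strand, with 0 shared exon bases.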

How the data were processed

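Poly(A) RNA of whole colon pieces was sequenced in 27 libraries, and groups, mice, sex and age came from the labels. Per the submitters' processing notes, bcl2fastq 2.20.0.422, cutadapt 2.5, kallisto 0.46.2 and edgeR were used with the GRCm38 (mm10) build. The authors deposited estimated counts and TPM per transcript and library, and gene matrices of log2 CPM, 1 per segment. How those were normalized is not stated in the labels or files. The deposited proximal matrix holds all 9 genes and the distal one 8, without Shh.

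Estimated counts were summed per gene with GENCODE M21 (116728 of 119414 transcripts matched, the others holding 0.902% to 1.27% of counts) and rounded. Library totals were 18472867 to 56744113. Comparisons used the edgeR 4.0.16 quasi-likelihood test (R 4.3.3) after filterByExpr and TMM, with Benjamini-Hochberg adjustment over all genes and a threshold of 0.05. Genotypes were compared within each segment without covariates. Segments, and the genotype effect between them, were compared with mouse as a block, since both segments came from the same mouse (correlation of deviations 0.054 to 0.356 in deficient and -0.035 to 0.429 in control mice). Alternatives used DESeq2 1.42.0, limma 3.58.1, other filters, subsets of mice and each mouse left out. The procedure was tested on simulated data. TPM were used only to set genes side by side.

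The 9 genes, the pathway and marker lists and the tests were chosen with earlier results of these data known. Named were all 9 genes, up to 4 called genes of smallest p per pathway list and comparison, the 3 genes of highest correlation to Ihh, Shh, Hhip, Gli1 and Foxl1 (mean of at least 1 CPM, prior count 2, unnamed models left out), and Foxa1 and Foxa2. Marker genes of other cell types outside this rule were chosen after their values were seen. A few genes taken by these rules are not reported here. The list gene Gup1 was not matched. Results for the other cell type lists are given in the closing section.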

Additional observations from a re-analysis of the deposited data

Results flagged for a closer look

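Of 36 sets of a gene and a group, 3 held a library set apart from the rest of its group by its gap to the nearest value. The rule flags about 1 set in 20 for independent, normally distributed values. Gli1 and Gli2 are correlated over the libraries (r = 0.862) and have low counts, so 3 of 36 is not read as an excess. In distal deficient libraries Gli1 was highest in replicate 5, at 2.38 CPM against 0.954 CPM for the next, and Gli2 was highest in the same library, at 2.05 CPM against 1.13 CPM. In distal controls Gli2 was lowest in replicate 4, at 0.594 CPM against 1.07 CPM. These low levels rest on 65, 56 and 17 estimated counts.

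The genotype effect differed between segments for Hhip by -2.70 on the log2 scale, which was not tested here because Hhip was picked for that difference. It differed for Prkacb by -1.07 (SE 0.22, adjusted p = 0.0327 in edgeR's quasi-likelihood test). Prkacb was lower in distal deficient than distal control libraries and did not pass in proximal colon.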

How the results depend on the processing

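The number of the 8 tested genes called in proximal colon went from 2 to 1 with controls without Cre alone (Shh -0.59, adjusted p = 0.0654), in mice labelled male (Ihh -0.45, adjusted p = 0.0731) and in mice of 9 to 13 months (Shh -0.55, adjusted p = 0.134). In distal colon it went from 1 to 0 with controls without Cre alone (Ihh -0.66, adjusted p = 0.0991). Each of these settings uses fewer mice and gave a smaller difference for the gene named, and why it no longer passed was not tested. Over all alternatives the adjusted p ranged from 0.000338 to 0.0731 for proximal Ihh, 0.0013 to 0.134 for proximal Shh and 0.00126 to 0.0991 for distal Ihh. With 1 mouse left out the counts stayed at 2 in proximal and 1 in distal colon, 0 for the difference, 4 between segments of controls, and 6 to 7 between segments of deficient mice. Hhip stayed between -2.58 and -2.17 distally, 0.07 and 0.52 proximally, and -3.004 and -2.51 for the difference. No called value changed sign. Over all genes, DESeq2 called 1502 in distal colon against 973, and 529 for the difference against 178, which was 102 without control replicate 2, 110 without deficient replicate 3 and 106 in mice of 9 to 13 months. The cause was not tested.

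Replicate numbers are shared by different mice and do not pair them (correlations -0.135 to 0.228 proximally and -0.065 to 0.224 distally). With the replicate number as a block, 2 genes were called in proximal and 1 in distal colon, with Ihh at -0.48 (adjusted p = 0.0442) and -0.95 (adjusted p = 0.0122). Without the mouse block, 0, 4 and 6 were called for the difference and the segments of control and deficient mice. Depth limits distal Shh and Hhip most, with 3 and 2 estimated counts in the lowest library.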

Other observations

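Marker genes of the other cell types were counted by the same test. In proximal colon 3 of 18 fibroblast genes rose (Grem1 0.80, Pdgfra 0.54 and Cd81 0.30 on the log2 scale) and 0 fell, 1 of 11 endothelial and pericyte genes rose, 2 of 6 interstitial cell of Cajal genes fell, and 0 of 11 enteric neuron and glia, 0 of 6 mesothelial, 0 of 12 epithelial, 0 of 13 smooth muscle and 0 of 7 squamous genes passed the edgeR test (1, 0, 2, 0 and 2 at an unadjusted p under 0.05). Of 10 crypt base genes 2 rose and 3 fell, of 4 small-intestinal genes tested 1 rose and 1 fell, and of 11 immune genes 1 rose.

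In distal colon 1 of 18 fibroblast genes rose (Cd81 0.49), 1 of 12 epithelial genes fell (Tspan8 -0.58), and 0 of 6 interstitial cell of Cajal, 0 of 11 endothelial, 0 of 11 enteric neuron and glia and 0 of 6 mesothelial genes passed the edgeR test (1, 0, 3 and 1 at an unadjusted p under 0.05). Enteric neuron and glia genes had a median of -0.58 there and mesothelial genes -0.57, beside the smooth muscle median of -0.63. Of 10 crypt base genes 2 rose, of 8 squamous genes 1 rose, of 4 small-intestinal genes 1 rose and 1 fell, and of 12 immune genes 1 rose.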
